A study of Danio rerio with 32 samples.

Results

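Chaperones bind proteins that are unfolded, newly made or in transit and keep them from aggregating, and co-chaperones select their clients or drive their cycle. HSP70 proteins hold short stretches of a client while they split ATP. J-domain proteins (the DNAJA, DNAJB and DNAJC genes) bring clients to HSP70 and speed the splitting, whereas many BAG proteins, HSP110 proteins and HspBP1 help to release the bound ADP. HSP60 with its lid HSP10 in mitochondria, and the ring of CCT subunits called TRiC in the cytosol, are chaperonins, which enclose a client while it folds. Small heat shock proteins hold clients without ATP. The liver makes and secretes large amounts of protein, and many of these genes are known to be raised by damaged protein in the cytosol, the endoplasmic reticulum (ER) or mitochondria.

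The set described here comprised every gene on the array whose RefSeq symbol began with hsp, dnaj or bag (followed by a letter or digit) or with cct and a digit, together with tcp1. The inducible HSP70 gene hsp70l was left out. Through the RefSeq transcript that each probe was annotated with, 117 probes of 76 genes qualified, of 43603 probes on the array. By family these were 18 DNAJA and DNAJB genes, 20 DNAJC genes, 10 HSP70 and HSP110 genes, 9 chaperonin genes, 8 small heat shock genes, 5 BAG genes, 4 HSP90 genes, and 2 others, hspbp1 and hspbap1. The rule itself reads gene symbols alone.

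The samples were livers of adult male Tübingen zebrafish of 6 to 9 months. Each array was hybridised with a pool of RNA from 4 to 5 fish, and each group had 4 arrays, 32 in all. In the exposure experiment fish stayed for 24 h in flow-through tanks with dichlorvos (DDVP, an organophosphorus insecticide that inhibits acetylcholinesterase) at labelled target concentrations of 6, 19 or 32 mg/L, called low, mid and high here (the methods give somewhat lower measured ones at mid and high), or in 1 of 2 control sets without it. In the feeding experiment unexposed fish were fed before harvest (4 h before, by the methods) or went without food for 24 h or 50 h by the labels, and the methods give 29 h for the shorter time. The comparisons ask which chaperone transcripts differed with the DDVP concentration, and whether lack of food alone moved the same transcripts.

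The exposure values are the log2 values that the authors deposited for 5481 probes, and 36 member probes of 27 genes are among them. Those 5481 had been selected for differing between groups on these arrays, so a member in the table had to differ somewhere, and counts over such members describe them and are no support for an effect on the whole set. The other 49 genes have no exposure value analysed here, which takes in all 4 HSP90 genes, the ER HSP70 gene hspa5, and dnajb1b, bag3 and hspb1. Of the 117 member probes 81 are outside the table. Among them are other probes of hspb8, hspa8, dnajc4, dnajc2, dnajc15, cct7 and bag1. For these genes the exposure values rest on the single probe that the selection kept. The table had also been adjusted so that both control sets have the same mean in every probe (largest difference 1e-04), so 8 control arrays fix the reference no better than 4 would, and standard errors and adjusted p are too small. The 24 h unfed group has that mean too (largest difference 1e-04 from control set 1). For feeding, 93 member probes of 60 genes passed the signal filter, of 16083 probes tested, and 26 of the 27 exposure genes were among them. Squared correlations between replicate arrays were 0.954 to 0.976 in the exposure experiment and 0.932 to 0.974 in the feeding experiment. The liver label held: all 6 hepatocyte marker genes on the array stood well above background on the feeding arrays. Of these markers 3 were present in the exposure table, and their mean log2 level per array fell from 14.1 to 14.3 in controls to 13.0 to 13.1 at high DDVP. Like every probe of that table, those of the 3 had been selected for differing. The other hepatocyte markers have no exposure value here. In bulk tissue, fewer cells of a type and less RNA per cell cannot be told apart. The part of such a shift in the chaperone values was not tested.

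Most of the chaperone genes in the table rose at mid and high DDVP, the HSP110 gene hspa4a by most, and few were called at low. In value 31 of 36 member probes were above 0 at low, beside 51.9% of all probes. A call required an adjusted p of at most 0.001 in limma over the 5481 probes and a fold of at least 1.8. At low, 3 of 36 member probes rose and 0 fell, where 13.4% of all probes rose and 17.3% fell. At mid, 18 rose and 1 fell, beside 31.9% and 30.7% of all probes. At high, 24 rose and 3 fell, beside 39.4% and 35.1%. The median log2 change of the members was 0.24, 0.87 and 1.12 at low, mid and high, and over all probes it was 0.05, 0.45 and 0.51. In genes, taking for each the probe with the highest mean, 3 rose at low, 15 at mid and 18 at high. All 15 that rose at mid also rose at high, 3 genes fell at high, and 6 of the 27 were called at no concentration. All 4 arrays lay above all 8 controls in 9 member probes at low, 32 at mid and 30 at high, where 25.3%, 47.5% and 49.5% of all probes did so.

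**Figure D1:**
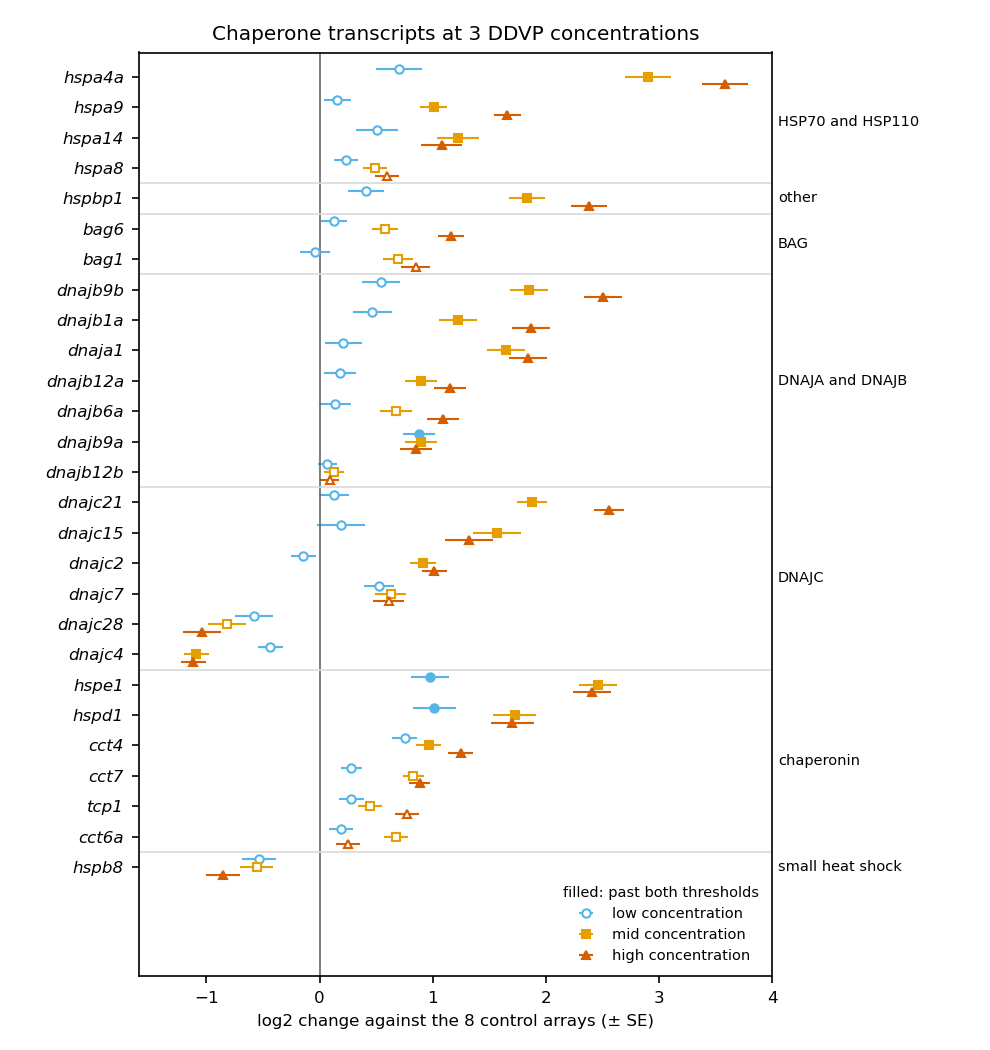
Log2 change (x axis, ± SE) of the 27 chaperone genes in the deposited table at low (circles), mid (squares) and high (triangles) DDVP against the 8 control arrays, 1 probe a gene, grouped by family; filled symbols passed both thresholds. hspa4a lies farthest to the right at high, at 3.58, and dnajc4, dnajc28 and hspb8 lie to the left of 0 at every concentration.

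Among HSP70 and HSP110 genes, all 4 in the table had values above 0 at all 3 concentrations. By their main probe 3 of them rose at both mid and high. Of all probes, 51.9% to 56.8% had values above 0 at these concentrations. hspa4a belongs to the HSP110 proteins, which release ADP from HSP70. Its log2 values were 8.68 to 9.16 in the 8 controls (median 8.89). They were 10.42, 9.73, 8.84 and 9.44 at low, 12.35, 11.45, 11.82 and 11.61 at mid, and 12.18, 12.46, 12.72 and 12.59 at high. At low 1 array lay within the controls and replicate 1 far above the rest, whereas mid and high did not overlap the controls. hspa4a was 7.47-fold higher than controls at mid and 12.0-fold higher at high (log2 change 3.58 ± 0.21 (SE, 4 against 8 arrays), adjusted p = 5.895e-13 in limma). At low its log2 change of 0.70 ± 0.21 missed the fold threshold and the adjusted p was 0.0045. Without low replicate 3 it was called at low, with a change of 0.96.

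hspa9, the mitochondrial HSP70 that draws proteins through the inner membrane, had 4 probes in the table. Its main probe read 13.01 to 13.27 in controls (median 13.15). It read 13.37, 13.18, 13.63 and 13.03 at low, 14.46, 13.93, 14.29 and 13.94 at mid, and 14.64, 14.96, 14.94 and 14.69 at high. At low 2 arrays lay within the control range and 2 above it, and every mid and high array lay above it. The rise at high was 3.16-fold (log2 1.66 ± 0.12, adjusted p = 2.32e-11), and the other 3 probes gave log2 changes of 1.06, 1.25 and 1.36, each past both thresholds. At mid only the main probe was called, and the other 3 missed the fold threshold. hspa14, an HSP70-like protein that sits at the ribosome in mammals, was 2.33-fold higher at mid and 2.11-fold higher at high (log2 1.22 ± 0.18 and 1.08 ± 0.18). hspa8, the constitutive cytosolic HSP70, was 1.41-fold higher at mid and 1.51-fold at high, short of the fold threshold, with adjusted p of 0.00018 and 1.61e-05. Its 4 high arrays read 15.25 to 15.39 and its 8 controls 14.37 to 14.94, with no overlap. The files hold no probe sequences, so whether the hspa8 probe also binds other HSP70 messages was not tested.

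The hspbp1 and BAG genes in the table differed in size of change. hspbp1 was at 7.57 to 8.36 in controls (median 7.94). It was at 8.66, 8.07, 8.41 and 8.36 at low, 9.99, 9.70, 9.88 and 9.64 at mid, and 9.99, 10.39, 10.44 and 10.58 at high. Mid and high cleared the controls on every array, and low did not. hspbp1 rose 3.57-fold at mid and 5.22-fold at high (log2 2.38 ± 0.16 at high, adjusted p = 6.75e-12). Of the 5 BAG genes on the array 2 were in the table. bag6, which guards tail-anchored and mislocated membrane proteins in the cytosol, read 11.97, 11.98, 12.42 and 11.92 at high against 10.70 to 11.18 in controls, a 2.24-fold rise (adjusted p = 3.15e-09). bag1, a nucleotide exchange factor of HSP70, was 1.62-fold higher at mid. Its log2 change at high, 0.8475, lay just under the 1.8-fold threshold, and that of dnajb9a, 0.8484, lay just past it. bag1 was called at high with arrays centred on their medians (0.86) and without control set 1 replicate 2, control set 2 replicate 1 or 3, or high replicate 1 or 3 (0.86 to 0.98).

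**Figure D2:**
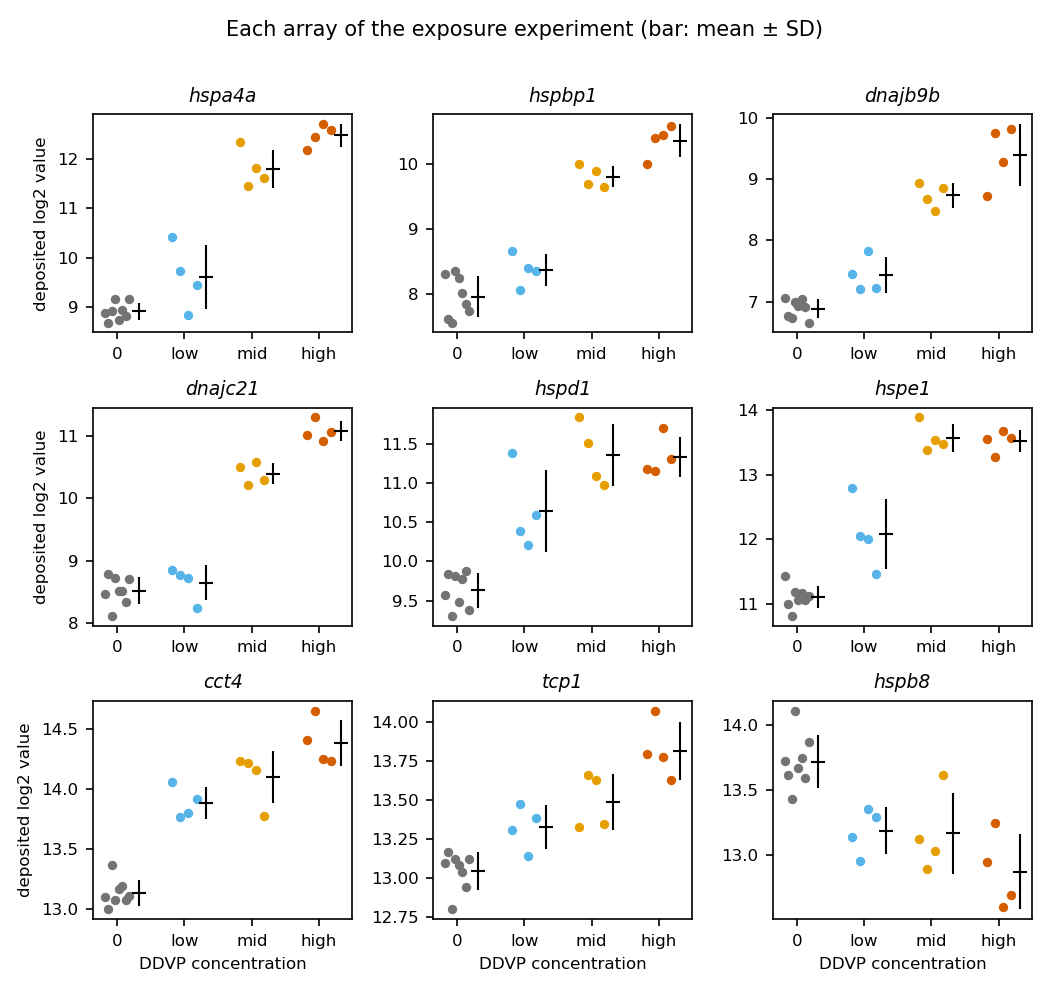
Deposited log2 value (y axis, its own scale in each panel) of 9 chaperone genes on every exposure array, at 0 (8 arrays) and at low, mid and high DDVP (4 arrays each; x axis); crosses with bars are mean ± SD. hspa4a, hspbp1, dnajb9b and dnajc21 show mid and high arrays all above the controls, and hspb8 shows high arrays all below them.

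J-domain proteins of the DNAJA and DNAJB kinds moved one way: all 10 probes of 7 genes had values above 0 at each concentration, and 7 probes rose at high. Of all probes, 51.9% to 56.8% had values above 0 at these concentrations and 39.4% rose at high. dnajb9b encodes an ER J protein (ERdj4 in mammals), which works with the ER HSP70. Its values were 6.66 to 7.05 in controls (median 6.92). At low they were 7.46, 7.20, 7.83 and 7.23, at mid 8.93, 8.68, 8.48 and 8.86, and at high 8.72, 9.75, 9.28 and 9.82. Every exposed array exceeded every control, also at low, where the log2 change of 0.54 ± 0.17 missed the fold threshold (adjusted p = 0.0064). dnajb9b rose 3.60-fold at mid and 5.68-fold at high (log2 2.51 ± 0.17, adjusted p = 6.903e-12). Its paralog dnajb9a behaved otherwise in value: log2 changes of 0.88, 0.90 and 0.85 at low, mid and high, each called, and 0.57, 0.75 and 0.81 by its other probe, none called. Its calls at low and high were each lost without control set 1 replicate 2 and without control set 2 replicate 1 or 3, that at low also without low replicate 1 or 3 (0.83 to 0.85), and that at high without high replicate 2 or 4 (0.71 to 0.82). That at mid was lost without mid replicate 4 (0.82).

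The cytosolic J proteins dnaja1 and dnajb1a are HSP70 partners of the type that yeast and mammals also have. dnaja1 read 8.36, 7.92, 8.11 and 7.99 at mid and 8.32, 7.73, 8.64 and 8.49 at high, against 5.85 to 6.69 in controls and 6.54 to 6.78 at low. Low did not part from the controls, and mid and high lay above them on every array. dnaja1 rose 3.13-fold and 3.59-fold at mid and high. dnajb1a rose 2.34-fold at mid and 3.65-fold at high, and its second probe gave log2 changes of 1.14 and 1.69 beside 1.22 and 1.87. dnajb12a, an ER membrane J protein, rose 2.22-fold at high by its main probe and missed the fold threshold by the other (log2 0.71). Its call at mid was lost without mid replicate 1 or 2 or control set 1 replicate 2 (0.81 to 0.85). dnajb6a, which holds back aggregation of polyglutamine proteins in mammals, rose 2.13-fold at high. dnajb12b stayed between 5.42 and 5.76 on all 20 arrays, with log2 changes of 0.07, 0.13 and 0.09.

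DNAJC genes went both ways. dnajc21, whose yeast counterpart helps to recycle factors of ribosome assembly, gave 8.11 to 8.78 in controls (median 8.51). It gave 8.85, 8.77, 8.72 and 8.24 at low, 10.50, 10.21, 10.57 and 10.29 at mid, and 11.02, 11.30, 10.91 and 11.07 at high. The low arrays lay in or next to the control range and the others far above it. The rise was 3.68-fold at mid and 5.89-fold at high (log2 2.56 ± 0.13, adjusted p = 1.561e-13), and the second probe gave 2.54 at high. dnajc15, a J protein of the mitochondrial inner membrane, rose 2.96-fold at mid and 2.49-fold at high. dnajc2, which pairs with hspa14 at the ribosome in mammals, rose 1.89-fold and 2.02-fold. dnajc7, which binds both HSP70 and HSP90, was called at no concentration by either probe, with log2 changes of 0.52 to 0.65.

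dnajc4 and dnajc28 fell. dnajc4 was at 9.59 to 10.17 in controls, at 9.33, 9.53, 9.37 and 9.30 at low, at 8.68, 8.70, 8.60 and 8.93 at mid, and at 8.60, 8.68, 8.72 and 8.80 at high. Every exposed array lay below every control. Its decrease passed both thresholds at mid (2.13-fold) and at high (2.17-fold, adjusted p = 3.513e-09). dnajc28 fell 2.06-fold at high, where its 4 arrays read 9.42 to 9.54 and its controls 10.06 to 10.91. At mid its log2 change of -0.82 missed the fold threshold, and it was called without any 1 of 4 arrays (mid replicate 1 or 3, control set 1 replicate 3 or control set 2 replicate 2), with log2 changes of -0.85 to -0.89.

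All 6 chaperonin genes in the table had values above 0 at each concentration, where 51.9% to 56.8% of all probes did. The mitochondrial pair hspd1 (HSP60) and hspe1 (HSP10) passed both thresholds at all concentrations. hspe1 read 10.82 to 11.44 in controls (median 11.10). It read 12.80, 12.05, 12.01 and 11.47 at low, 13.88, 13.38, 13.53 and 13.48 at mid, and 13.55, 13.27, 13.67 and 13.56 at high. No exposed array overlapped the controls, and the mid and high arrays overlapped each other. hspe1 was 1.96-fold higher at low, 5.50-fold at mid and 5.30-fold at high (adjusted p = 3.323e-05, 1.871e-11 and 1.569e-11). hspd1 was 2.02-fold, 3.30-fold and 3.26-fold higher. Its second probe gave log2 changes of 0.07, 1.07 and 1.15 beside 1.01, 1.72 and 1.70, so the rise at low rests on 1 of its probes. Replicate 1 was the highest low array for hspa4a, hspd1 and hspe1, and for 15 of 36 member probes, against 24.0% of all probes. Without it the calls of hspd1 (log2 0.77), hspe1 (0.74) and dnajb9a (0.83) at low were all lost to the fold threshold. With either control set alone the hspd1 call at low was lost as well. At mid, replicate 1 was the highest array for 20 of 36 member probes, against 27.5% of all probes. Leaving out each array in turn gave 19 to 21 member probes called at mid.

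Of the cytosolic TRiC ring, tcp1, cct4, cct6a and cct7 were in the table. cct4 stood at 13.00 to 13.37 in controls, 14.06, 13.77, 13.80 and 13.92 at low, 14.24, 14.22, 14.16 and 13.78 at mid, and 14.41, 14.65, 14.25 and 14.23 at high. All exposed arrays were above all controls, and low and mid overlapped. cct4 rose 1.95-fold at mid and 2.38-fold at high, and its 1.68-fold at low (adjusted p = 4.553e-06) missed the fold threshold. cct7 rose 1.85-fold at high, and at mid it was called only without mid replicate 2 or 4 (log2 0.86 and 0.88). tcp1 read 13.79, 14.07, 13.77 and 13.63 at high against 12.80 to 13.17 in controls, 1.71-fold and short of the fold threshold (adjusted p = 6.542e-07). cct6a was highest at mid, with a log2 change of 0.68, and had 0.25 at high.

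The single small heat shock gene in the table, hspb8, fell. hspb8 works with bag3 to send damaged protein to autophagy in mammals. It was at 13.43 to 14.11 in controls (median 13.70), 13.14, 12.95, 13.35 and 13.29 at low, 13.12, 12.89, 13.03 and 13.61 at mid, and 12.94, 13.24, 12.60 and 12.69 at high. Low and high lay below all controls and mid overlapped them through replicate 4. The 1.81-fold decrease at high (log2 -0.85 ± 0.15, adjusted p = 1.118e-05) was only just past the fold threshold, and it no longer passed without high replicate 3 (-0.76), high replicate 4 (-0.79), control set 1 replicate 4 (-0.80) or control set 2 replicate 4 (-0.83), or with arrays centred on their medians (-0.84).

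More members passed the test between low and mid than between mid and high. Neither the labels nor the methods say which control set goes with which concentration. A step between concentrations may therefore rest on the alignment of the control means, and its standard error leaves that out. Whether the 2 steps differ in this was not tested. From low to mid 12 of 36 member probes rose and 0 fell, beside 12.6% and 13.2% of all probes, and the median member change was 0.63 against 0.10 for all probes. Those with the largest step were hspa4a (log2 2.20 ± 0.24), dnajc21 (1.75 ± 0.16) and hspe1 (1.48 ± 0.20). From mid to high 0 of 36 were called, beside 1.37% of all probes, and 16 passed an unadjusted p of 0.05, as did 31.9% of all probes. At an adjusted p of 0.05 with no fold filter 9 probes were higher and 1 was lower at high than at mid, beside 8.23% and 8.08% of all probes. The higher ones were probes of dnajc21, hspa9, bag6, dnajb1a, dnajb9b and hspbp1, and the lower one was cct6a (log2 -0.43 ± 0.12, adjusted p = 0.022). These genes are listed because they passed that looser threshold. In value 24 of 27 genes were higher at mid than at low, beside 54.75% of all probes. From mid to high 16 of 27 were higher, beside 51.32% of all probes.

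Genes that work with chaperones but lie outside the rule went both ways at high, as did all probes of the table (39.4% rose and 35.1% fell). Of 22 listed partners of HSP90 and HSP70, 18 were on the array and 7 in the table. At high 2 rose, stip1 and ptges3b (log2 0.98 and 1.08), and 1 fell, st13 (-1.41). At low 2 of the 7 fell, beside 17.3% of all probes. stip1 links HSP70 to HSP90, ptges3b is a p23 protein of the HSP90 complex, and st13 steadies the HSP70 bound to its client. Of 26 listed genes of ER folding and the unfolded protein response 13 were in the table. At high 6 rose and 5 fell, shares near those of all probes. The rises included the transcription factor atf4a (2.17) and the oxidase ero1a (1.84), and the falls the lectin chaperone calr (-3.62) and the disulfide isomerases pdia5 (-2.06) and pdia7 (-1.94). hsf2, a heat shock factor, was the 1 gene of its list in the table, with log2 changes of 1.40, 0.64 and 0.49 at low, mid and high, called at low. No prefoldin gene was in the table.

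Lack of food gave small median differences in the chaperone set. Single member probes ranged from -1.24 to 0.55 at 24 h and from -0.82 to 1.06 at 50 h in log2 change. With so few arrays a missing call does not show that a change was small. No member was called at an adjusted p of 0.001 in limma in any feeding comparison, beside 0.00622% of all probes at 24 h against fed, 0.0187% at 50 h against fed and 0.0% between the unfed times. At an unadjusted p of 0.05, 27, 16 and 6 of the 93 member probes passed, beside 23.2%, 24.2% and 6.27% of all probes. The median log2 change of the members was -0.06 at 24 h and -0.08 at 50 h, against -0.03 and -0.06 over all probes. At the looser adjusted p of 0.05, 6 member probes were lower at 24 h unfed and 5 at 50 h, and none was higher. Of all probes 3.63% were lower and 2.16% higher at 24 h, and 2.84% lower and 3.18% higher at 50 h. Between the unfed times 0 members passed at that level, beside 0.00622% of all probes. The genes named next were picked because they passed the looser threshold or stood on a short list of well-known chaperones. dnajb9b was named for its large change at high DDVP.

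The 2 ribosome-linked partners, hspa14 and dnajc2, were both lower without food. hspa14 read 10.35, 10.13, 10.40 and 10.57 in fed fish, 9.53, 9.59, 9.81 and 9.80 at 24 h, and 9.79, 9.88, 10.08 and 9.65 at 50 h. No unfed array overlapped the fed ones. The log2 change was -0.68 ± 0.13 at 24 h and -0.51 ± 0.13 at 50 h (4 against 4 arrays, adjusted p = 0.013 and 0.039 in limma). dnajc2 read 9.65, 9.54, 9.65 and 9.81 fed, 9.14, 8.89, 9.15 and 8.89 at 24 h, and 9.08, 9.06, 9.30 and 9.28 at 50 h, again without overlap. Its changes were -0.64 ± 0.11 and -0.48 ± 0.11 (adjusted p = 0.010 and 0.028), and a second dnajc2 probe gave -0.01 and -0.05. Within each of the 3 slides both genes were lower without food at both times, by 0.39 to 0.79 for hspa14 and 0.44 to 0.92 for dnajc2. With the slide as a block hspa14 no longer passed at 50 h (adjusted p = 0.053 in limma), and dnajc2 passed at both times. dnajc21 had changes of -0.75 and -0.70 by its main probe (adjusted p = 0.052 and 0.065), and -0.57 at 24 h by the other (0.049). dnajb12a passed at both times by its dimmer probe (-0.45 ± 0.10 and -0.47 ± 0.10, adjusted p = 0.030 and 0.025 in limma), at neither with the slide as a block, and at neither by its main probe (-0.21 and -0.23).

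hspb8 was lower without food too. Its main probe gave 15.33, 14.68, 14.69 and 14.79 in fed fish, 13.69, 13.97, 14.02 and 14.05 at 24 h, and 14.60, 13.84, 14.35 and 14.21 at 50 h. The unfed arrays lay below the fed ones throughout. The log2 change was -0.94 ± 0.18 at 24 h (adjusted p = 0.016) and -0.62 ± 0.18 at 50 h (0.067). A second probe gave -0.76 and -0.82 (0.050 and 0.038), and the last probe -0.06 and -0.22. hspb1, a small heat shock protein raised by heat in many tissues, was between 7.27 and 8.63 on 11 of the 12 feeding arrays and at 11.68 in 1 array of 50 h unfed.

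The ER members tended low at 24 h. Of 10 chaperone genes of the ER, a list made after the values were seen, all 10 had values below 0 at 24 h unfed against fed (median -0.51, range -1.24 to -0.16), and 8 of 10 at 50 h (median -0.31). Of these, dnajc10, a J protein that reduces disulfide bonds, passed the looser threshold at both times by its main probe. Its other probe on the array is not among those that passed. The main probe read 10.53, 10.50, 10.65 and 10.41 in fed fish. It read 9.99, 9.99, 9.89 and 10.15 at 24 h, and 10.08, 9.83, 9.99 and 10.16 at 50 h. Fed and unfed arrays did not overlap (log2 -0.52 ± 0.10 and -0.51 ± 0.10, adjusted p = 0.017 and 0.019). hspa5 (BiP), the ER HSP70, had the lowest value at 24 h. It read 16.54, 15.38, 15.48 and 14.57 in fed fish, 14.26, 14.04, 14.75 and 13.96 at 24 h, and 14.44, 15.27, 15.93 and 14.76 at 50 h. The 24 h arrays overlapped the fed ones through 1 array, and those of 50 h lay within the fed range but for 1. The change was -1.24 ± 0.40 (adjusted p = 0.084) at 24 h and -0.39 ± 0.40 at 50 h. dnajb9b had -1.15 ± 0.32 at 24 h (adjusted p = 0.059). dnajb12a, an ER membrane J protein, was not on the list. The separate list of ER folding and unfolded protein response genes was mixed without food. Of its 22 tested genes, 7 were above 0 at 24 h (median -0.26) and 9 at 50 h (median -0.11).

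**Figure D3:**
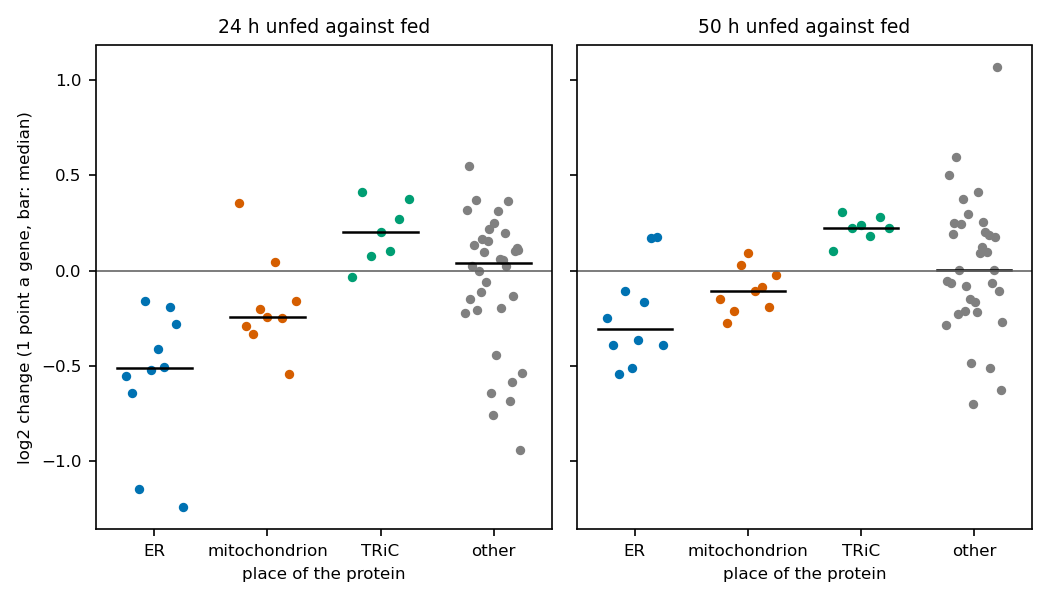
Log2 change (y axis) of the 60 tested chaperone genes at 24 h (left) and 50 h (right) unfed against fed, 1 point a gene, by where the protein works (x axis: ER, mitochondrion, TRiC or other); bars are medians. All 10 genes of the ER list lie below 0 at 24 h (53.5% of all probes do), with a median of -0.51. The 7 TRiC genes have medians of 0.20 and 0.22. The ER membrane gene dnajb12a is shown under other.

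The ER values leaned on 1 library. Fed replicate 1 was the highest fed array in 8 of the 10 ER genes, and without it the median was -0.32 at 24 h and -0.08 at 50 h. Within slides, hspa5 at 24 h was lower by 2.39, 0.68 and 0.60. At 50 h the slides differed in sign, with -2.10, -0.16 and 0.78. Exocrine pancreas, which can be taken along with zebrafish liver, makes much ER chaperone message. Its 10 marker genes on the array were all well above background in every group, and their mean log2 level was 13.6 to 14.8 in fed, 11.7 to 13.7 in 24 h unfed and 11.3 to 14.9 in 50 h unfed fish. All 10 were lower in value at 24 h (median log2 -1.31) and at 50 h (median -1.13, range -2.42 to -0.75), none past an adjusted p of 0.05. The part of pancreas RNA in the ER values was not tested. The 4 leukocyte marker genes on the array were all higher in value at 24 h (median log2 0.92) and at 50 h (1.11). Their mean log2 levels per array were 10.1 to 11.4 in fed, 10.9 to 12.4 in 24 h unfed and 11.6 to 12.4 in 50 h unfed fish. Of all probes 46.5% and 40.9% were higher in value at 24 h and 50 h. mpeg1.1, a macrophage gene, passed an adjusted p of 0.05 at 50 h (1.16 ± 0.26, adjusted p = 0.025 in limma). The part of leukocyte RNA in the feeding values was not tested.

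Mitochondrial and TRiC members had small medians in the feeding comparisons. Of 9 mitochondrial members 7 were below 0 at both times, with medians of -0.24 and -0.11 and none past the looser threshold. Their values ran from -0.54 to 0.36 at 24 h and from -0.27 to 0.09 at 50 h. The lowest at 24 h was hspd1, with -0.62 to -0.45 when each array was left out in turn (-0.31 to -0.10 at 50 h). With processed signals, median centring or the deposited table, hspd1 passed the looser threshold at 24 h. In the deposited table its main probe had -0.56. Under the other alternatives hspd1 did not pass. The 7 TRiC genes had medians of 0.20 at 24 h and 0.22 at 50 h. At 24 h 6 of the 7 were above 0, but 4 of 7 under processed signals or median centring, and at 50 h 7 were, but 5 under processed signals. Of all probes 46.5% were above 0 at 24 h and 40.9% at 50 h. hsp90ab1, the constitutive cytosolic HSP90, read 18.29 to 18.44 fed, 18.29 to 18.47 at 24 h and 18.41 to 18.57 at 50 h. Its changes of 0.03 and 0.10 turned to -0.04 and -0.09 with processed signals, and that at 24 h to -0.03 with median centring. hsp90aa1.2 (0.20 and 0.20), hsp90b1, the HSP90 of the ER (-0.19 and 0.17, but -0.06 at 50 h with processed signals), bag3 (0.55 and 0.50) and dnajb1b (0.16 and 0.37) had no change past an adjusted p of 0.05. hspa8 changed by 0.10 and 0.18, or -0.04 and -0.01 with processed signals. With each array left out in turn, hspa9 had -0.34 to -0.15 at 24 h, hspe1 -0.21 to -0.11 and tcp1 0.31 to 0.44. At 50 h hspa9 had -0.18 to 0.01, hspe1 -0.11 to 0.04 and tcp1 0.12 to 0.29.

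**Figure D4:**
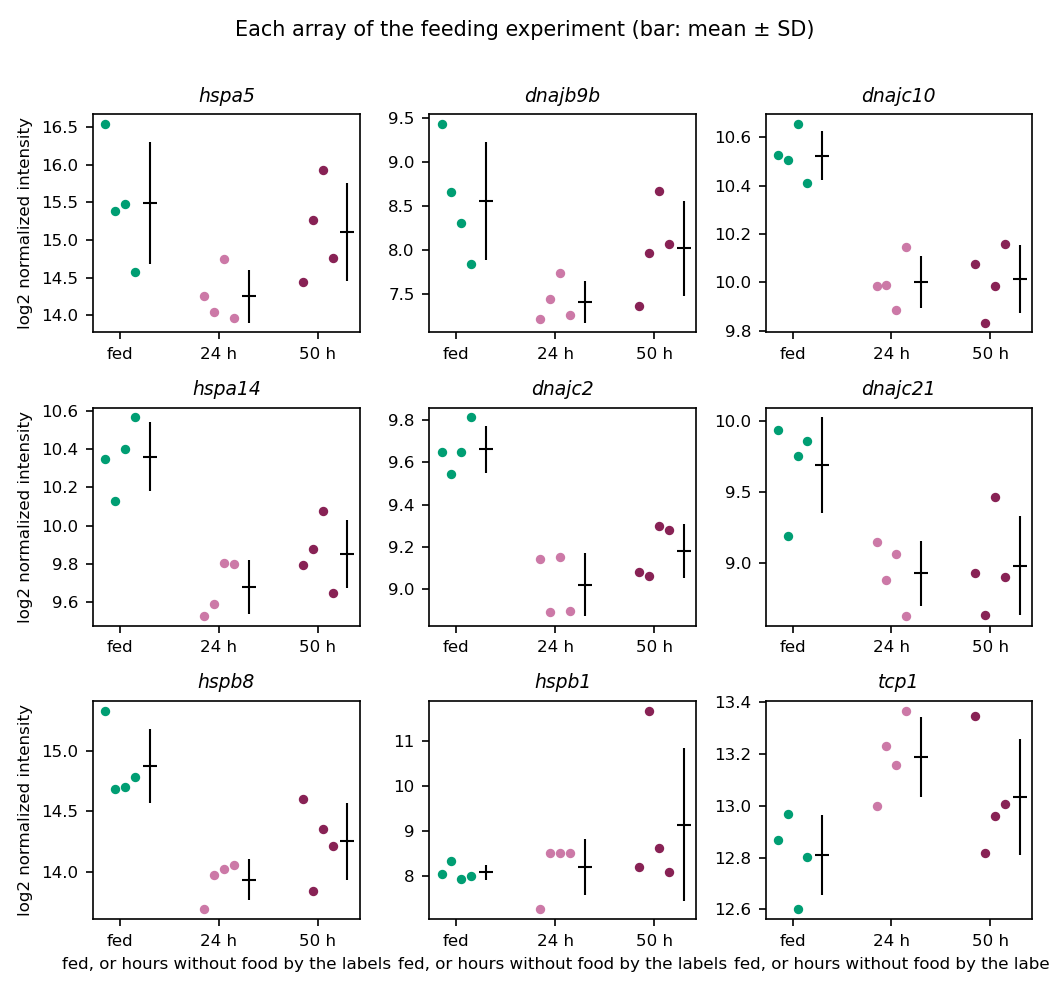
Log2 normalized intensity (y axis, its own scale in each panel) of 9 chaperone genes on each of the 12 feeding arrays (x axis: fed, 24 h or 50 h without food, 4 arrays each); crosses with bars are mean ± SD. hspa14, dnajc2, dnajc10 and hspb8 show no overlap between fed and unfed arrays, and hspb1 shows 1 array of 50 h at 11.68.

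In this selected table, exposure at high DDVP and 50 h without food differed in most members. The difference itself, the change at high DDVP minus the change at 50 h unfed, was tested on the deposited values of all 32 arrays at an adjusted p of 0.001. Each change is against its own experiment's reference, but the experiments were read on different scanners, whose part in the difference was not tested. It was called above 0 in 28 of 36 member probes and called below 0 in 2, where 44.3% and 33.1% of all probes were called. The median difference was 1.28 in the member probes, against 0.51 over all probes. Of the 27 genes, 20 were called above 0 and 2 below 0. Among these genes, 14 had a value above 0 at high and below 0 at 50 h unfed, 10 were above 0 in both and 3 below 0 in both. In 26 of 27 the absolute change was larger at high. The difference from 24 h unfed was not tested. In the table some members lay further from 0 at 24 h than at 50 h, such as hspa4a (-0.63 at 24 h), hspbp1 (-0.62) and dnajb9b (-1.31). Others lay nearer to 0, such as dnajb12b (-0.11). The change of hspb8 at 24 h was -0.97, beside -0.85 at high. The probes of the table were selected for differing on these arrays, and 39.4% of them were called up and 35.1% down at high. The called differences and the counts of signs and sizes therefore describe the members and are no support for a difference in the set. Standard errors and adjusted p of the difference are too small here as well. Shares of the signs and sizes over all probes were not computed. Among the 20, dnajb12b changed by 0.09 at high and by -0.65 at 50 h unfed, and it failed the feeding signal filter.

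The largest differences were those of hspa4a (log2 3.69 ± 0.30, adjusted p = 5.39e-12), dnajc21 (3.32 ± 0.25) and dnajb9b (3.11 ± 0.36). hspa14 and dnajc2, lower without food and higher at high, differed by 1.65 ± 0.25 and 1.49 ± 0.16 (adjusted p = 6.452e-07 and 3.009e-09). The TRiC genes had values above 0 in both, and their differences ran from 0.02 ± 0.15 in cct6a, not called, to 0.91 ± 0.16 in cct4. hspb8 was below 0 in both and did not pass the test of the difference (-0.20 ± 0.23, adjusted p = 0.40), an estimate too coarse to show that the changes were equal. dnajc4 and dnajc28 were lower at high by 0.93 and 0.96 more than at 50 h unfed, and both differences were called.

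**Figure D5:**
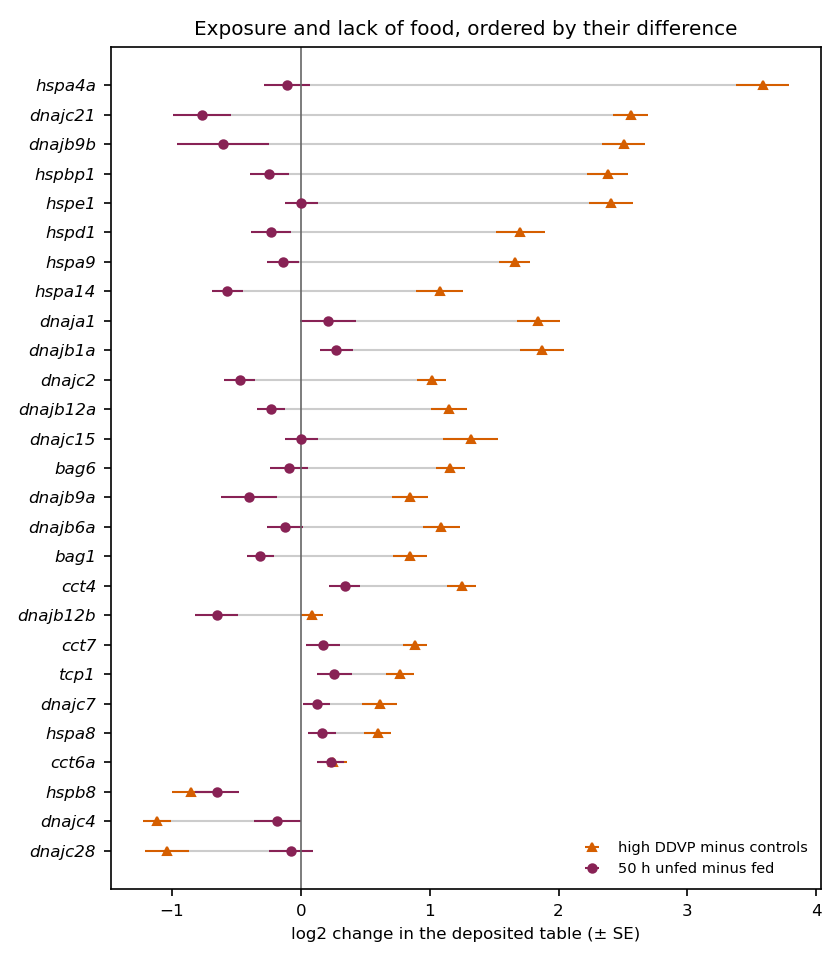
Log2 change (x axis, ± SE) in the deposited table of the 27 chaperone genes at high DDVP against controls (triangles) and at 50 h unfed against fed (circles), ordered from the largest difference at the top. The triangles reach 3.58 in hspa4a, the circles stay between -0.77 and 0.34, and both symbols lie left of 0 in hspb8.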

How the data were processed

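Liver RNA pools were hybridised by the authors to 1-colour Agilent zebrafish arrays. By the methods, the exposure slides were read on a GenePix scanner, with a weaker scan in place of off-scale spots, and the feeding slides on an Agilent scanner with Agilent Feature Extraction 10.7.1.1. For the exposure groups the deposited log2 values of 5481 probes were used. They are quantile normalized, and the authors selected these probes at a false discovery rate of 0.001 on the same arrays and removed the experiment batch. On the feeding arrays the deposited values lie closer to quantile normalized processed signals (SD of the difference 0.00215) than to median signals (0.108). For the exposure arrays this was not checked. For the feeding groups the deposited scanner intensity values (median spot signal, no background subtracted) were quantile normalized and put on the log2 scale. Spots flagged as outliers were left out, which touched 51 of the tested probes and 2 of the members. Probes were kept where (signal minus background) over the background pixel SD was at least 3 on all 4 arrays of a group. Median spot signals were 46 to 59 and background 38 to 52, 48.9% to 56.6% of spots were well above background and 0 were saturated, and the number of arrays limits the precision.

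Groups followed the labels. limma 3.58.1 (R 4.3.3; lmFit and eBayes) was fitted over all probes, with Benjamini-Hochberg adjustment over all of them; the fit was checked on simulated data. Calls used an adjusted p of at most 0.001, with at least 1.8-fold for the exposure, which are the cut-offs of the methods. For the exposure the adjustment ran over probes already selected on these arrays. The methods adjusted over all probes past a signal filter, so the adjustment here is more lenient. A gene's value is that of its exposure-table probe with the highest mean, or else of its brightest feeding probe. The genes named were, in each family, the 3 with the largest change at high, all that fell past the threshold, those called with feeding and a short list of well-known chaperones (hspa5, hspa8, hspa9, hspd1, hspe1, hsp90aa1.2, hsp90ab1, hsp90b1, hspb1, dnajb1b, bag3, tcp1 and hsph1, which has no probe by the rule). Others were named after their values were seen. The members and lists were chosen with earlier results of these data known. Gene names came from RefSeq symbols, with 15163 probes matched. Marker lists for erythrocytes (6 genes on the array, median log2 change at 24 h unfed 0.51), leukocytes (4 genes, 0.92, with values at both times given in the results), egg proteins (3 genes, 1 tested, -1.00) and skeletal muscle (9 genes, 1 tested, 0.24) were also measured on the feeding arrays. No egg, muscle or erythrocyte gene passed an adjusted p of 0.05 there. The alternatives were other scalings, filters, thresholds, control sets, slide and replicate blocks and leaving out each array.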

Additional observations from a re-analysis of the deposited data

Results flagged for a closer look

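Of 173 gene and group pairs with 4 arrays each, 9 held 1 array far from the other 3 by Dixon's criterion, and chance gives about 1 in 20 (8.65 here). hspb1 had 2 of them, at 24 h unfed replicate 1 (7.27, next array 8.51) and at 50 h unfed replicate 2 (11.68, next 8.63). dnaja1 had 2 low control arrays, control set 1 replicate 4 (6.10, next 6.55) and control set 2 replicate 1 (5.85, next 6.58). bag6 was high in high replicate 3 (12.42, next 11.98) and cct4 was low in mid replicate 4 (13.78, next 14.16). In the feeding groups hsp90ab1 was high in 50 h unfed replicate 3 (18.57, next 18.43), hspb8 was high in fed replicate 1 (15.33, next 14.79), and hspbp1 was low in 50 h unfed replicate 2 (8.42, next 8.65).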

How the results depend on the processing

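Counts of member probes called kept within 1.5 times of the reported ones under most alternatives, and these did not. With no fold filter the count was 5 at low and 34 at mid. At an adjusted p of at most 0.05 with no fold filter it was 18 at low, 35 at mid and 26 for mid against low. At that setting it was 10 for high against mid, 6 for 24 h unfed and 5 for 50 h unfed. Shares of all probes at these settings are not given for low, mid and mid against low. Those counts are therefore no result about the members. With the dimmest probes left out the count was 7 for mid against low. That setting also drops any dim member probes, so its count may be out of fewer members. Leaving out each array in turn gave 0 to 3 at low, the 0 without low replicate 1. Deviations of same-numbered exposure arrays correlated by -0.28 to 0.33 (median 0.05, against -0.008 for different numbers). In the feeding experiment the range was -0.30 to 0.37 (median -0.06, against 0.05). With so few arrays and such a spread, these correlations cannot settle whether the numbers pair arrays. The replicate block gave 29 calls in place of 30 for the difference between exposure and lack of food and moved no count at the reported thresholds by over 1.5 times. At the looser adjusted p of 0.05 it left 2 of the 5 lower members at 50 h unfed, dnajc10 and dnajc2.

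At the adjusted p of 0.05, a choice made after seeing the data, the lower members numbered 5 to 9 of 93 to 117 at 24 h unfed over the alternatives, and 12 of 36 in the deposited table, where 1 (cct4) was higher. Shares of all probes under these alternatives are not given, so these counts are no result about the members. The deposited table had also been selected for differing. At 50 h the lower members numbered 1 to 6. They numbered 1 (hspb8) under median centring and 4 with the slide as a block, where hspa14 and dnajb12a were lost. At 24 h hspa14 and dnajc2 passed under all alternatives run. Leaving out 1 array gave 3 to 8 and 0 to 5. Of those reported, 3 of 6 remained at 24 h without fed replicate 3 or 24 h unfed replicate 1 or 3. At 50 h 0 of 5 remained without fed replicate 3, 1 (dnajc10) without fed replicate 1 or 50 h unfed replicate 2, where dnajc5gb was higher, 2 without fed replicate 2 or 50 h unfed replicate 1, and 3 without 50 h unfed replicate 4. Of 1778 values of named genes under alternatives 32 changed sign, all of them uncalled and at most 0.202 in size as reported. With processed signals minus the 75th percentile dnaja1 (-0.0245), dnajc28 (-0.1184), hsp90ab1 (-0.0445) and hspa8 (-0.0442) did so at 24 h, and hsp90ab1 (-0.0868), hsp90b1 (-0.0566) and hspa8 (-0.0135) at 50 h. With arrays centred on their medians dnajc28 (-0.0602), hsp90ab1 (-0.0327) and hspa8 (-0.0346) did so at 24 h, and bag1 at low (0.0071). With the deposited table dnaja1 at 24 h (-0.0806) and hspe1 at 50 h (0.0015) did. Leaving out each array gave -0.1161 to 0.0529 for bag1 at low. At 24 h it gave -0.1087 to 0.1354 for dnaja1, -0.0611 to 0.1586 for dnajc28 and -0.4278 to 0.1848 for hsp90b1. At 50 h it gave -0.152 to 0.0202 for bag6, -0.0289 to 0.1113 for dnajc15, -0.0344 to 0.4411 for hsp90aa1.2, -0.0807 to 0.55 for hsp90b1, -0.2053 to 0.049 for hspa4a, -0.183 to 0.0133 for hspa9 and -0.1115 to 0.0421 for hspe1. The cause was not tested.

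The planned background correction on mean spot signals was not run, because the files hold median signals; normexp on those, added after the data were seen, moved no count of calls. Deposited exposure values allow no other background correction or scaling by spot, and probes outside that table were not analysed for exposure.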
